A study of Homo sapiens with 10 samples.

Results

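The major histocompatibility complex (MHC) on chromosome 6 is described here through the accessible regions called in it by ATAC-seq, in which a transposase cuts and tags open DNA. Members were all peaks of the 10 deposited lists inside chr6:29000000-33000000 of build hg19, or on any of the 7 alternative chromosome 6 sequences that this build carries for other MHC haplotypes. Peaks of different lists that overlapped by at least 1 bp on the same sequence were merged into 1 region. This gave 452 MHC regions, 54 in the chromosome 6 window and 398 on the haplotype sequences, out of 36375 regions on all sequences and 35505 on chromosomes 1 to 22 and X. The same locus can be counted up to 8 times in this set, once per sequence, so regions on different sequences are not independent observations.

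The cells were CCRF-CEM, an established human T-lymphoblast line from a leukemia. The parental line was labelled wild-type and carries SLFN11, a protein that acts at stressed replication forks, and the second line was labelled as a knockout of the SLFN11 gene. Each line received DMSO, 100 nM prexasertib (an inhibitor of the checkpoint kinase CHK1) for 2, 4 or 6 h, or 100 nM camptothecin (which traps topoisomerase I on DNA) for 4 h. Each of the 10 groups is 1 library, so no difference below was set against a spread between replicates and no p-value is given. The sources used here do not say how the knockout was made or whether it is 1 clone. For the parental library at 4 h of prexasertib, the series record states that its raw data are cut short. The labelled cell type was not checked against marker genes, since no hg19 gene annotation was used here.

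The class I part of the MHC holds the genes whose products display peptides from inside the cell to CD8 T cells and natural killer cells. The class II part holds those that display peptides taken up from outside to CD4 T cells, together with peptide-loading genes. The class III part between them is densely packed with genes for complement factors, cytokines of the tumor necrosis factor family and many housekeeping functions. Haplotypes differ between people in sequence and, in places, in gene content. The haplotype sequences of hg19 are named apd, cox, dbb, mann, mcf, qbl and ssto after the cell lines they came from, and a read that matches several of these sequences equally well has no single place among them.

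Coordinates set the parts here. Class I was taken as chr6:29000000-31500000 (2.5 Mb), class III as chr6:31500001-32400000 (0.9 Mb) and class II as chr6:32400001-33000000 (0.6 Mb). In the RefSeq gene order of GRCh38.p14, which served for names and order only, 139 genes (49 protein coding) run from HLA-F to MICB, 92 (60 protein coding) from DDX39B to BTNL2 and 30 (16 protein coding) from HLA-DRA to HLA-DOA. No peak could be tied to a gene.

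The haplotype sequences carried most of the MHC peaks in every library. The chromosome 6 window held 7 peaks in parental cells with DMSO, 13, 23 and 47 at the 3 prexasertib times (2, 4 and 6 h), and 33 on camptothecin. In knockout cells it held 15 with DMSO, 28, 23 and 29 on prexasertib, and 13 on camptothecin. The 7 haplotype sequences together held 73, 94, 187, 316 and 282 peaks in parental cells (DMSO, the prexasertib times, camptothecin), and 128, 216, 210, 226 and 119 in knockout cells. For each peak in the window there were between 6.72 (parental 6 h prexasertib) and 10.4 (parental DMSO) on the haplotype sequences. All MHC peaks made up 0.494% of the parental DMSO list and 1.5% of the parental 6 h prexasertib list, the lowest and the highest share of the 10.

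The sequences carried unequal numbers of regions. Over all 10 lists, cox had 90 regions, qbl 62, dbb 60, mcf 59, ssto 56, mann 49 and apd 22, against 54 in the chromosome 6 window. The order was stable at its ends, with cox first and apd last in all 10 libraries. On cox the number of peaks ran from 17 with DMSO to 66 after camptothecin in parental cells, and from 25 after camptothecin to 50 after 6 h of prexasertib in knockout cells. On apd it ran from 3 to 17 and from 6 to 12. The haplotype sequences also extend past the window on both sides, and 85 of their 398 regions were placed there. How many bases of each sequence can take reads was not examined.

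**Figure D1:**
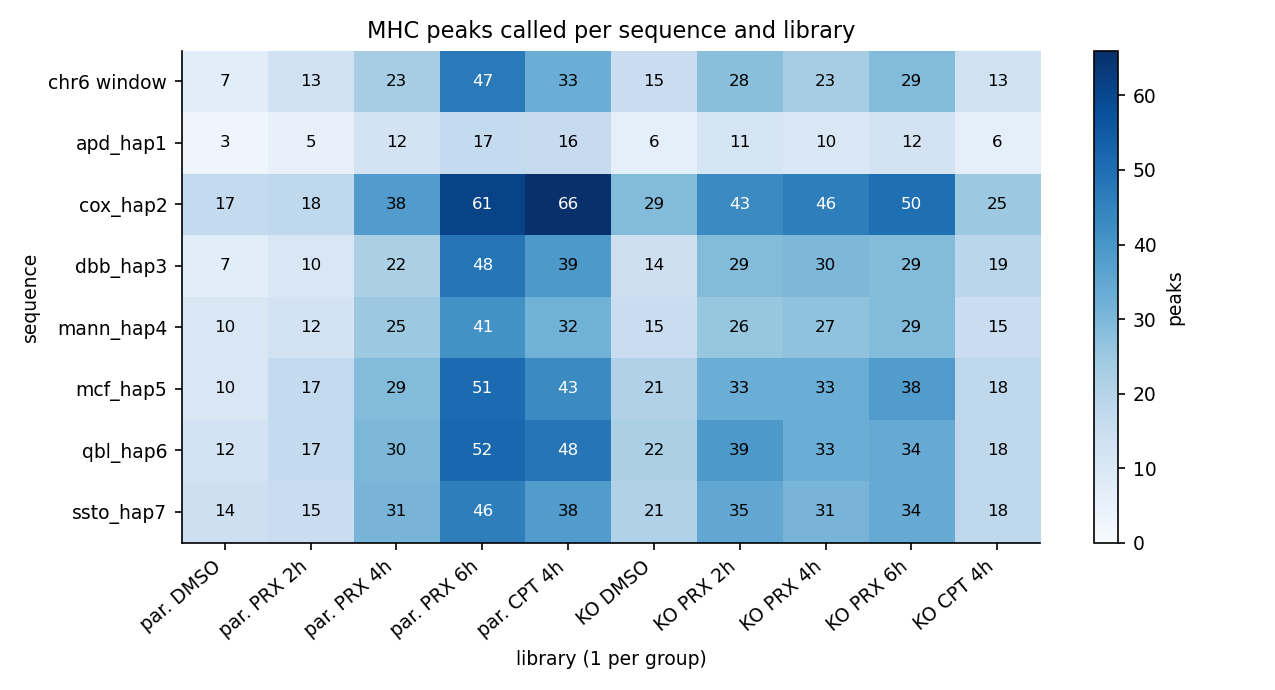
MHC peaks called on each sequence (rows; the top row is the chromosome 6 window) in each library (columns; par. is parental, KO knockout, PRX prexasertib, CPT camptothecin), with the number of peaks printed in each cell. The cox row is the highest and the apd row the lowest in all 10 columns, and the parental DMSO column is the lowest on every sequence.

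Within the chromosome 6 window, regions were most dense in the class III part. It held 22 of the 54 regions (40.7%, exact 95% interval 27.6 to 55.0%), or 24.4 per Mb. The class I part held 27 (50%, 36.1 to 63.9%), or 10.8 per Mb, and the class II part 5 (9.26%, 3.08 to 20.3%), or 8.33 per Mb. The intervals take in counting error alone, over regions. On the haplotype sequences, placed on the chromosome 6 scale as described below, 149 regions fell in the class I part, 131 in class III, 33 in class II, 31 before the window and 54 after it. The longest stretch of the window without a peak in any list, chr6:32163858-32812232, spanned 648 kb across the end of the class III and most of the class II part. The haplotype sequences had 2 regions placed in it. The next longest empty stretches were 292, 259 and 250 kb, all in the class I part, and 9, 8 and 5 haplotype regions were placed in them.

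The window was sparser and less often shared between lists than the chromosome on either side of it. Between 24 and 28 Mb of chromosome 6 there were 116 regions, of which 63 (54.3%) were called in all 10 lists, and between 34 and 38 Mb 107 regions, of which 40 (37.4%) were. In the window 4 of 54 (7.41%) were called in all 10 lists, and on the haplotype sequences 49 of 398 (12.3%), against 32.7% of the regions on chromosomes 1 to 22 and X. The density per Mb within the window was lowest from 29 to 30 Mb, with 4 regions, and highest from 31 to 32 Mb, with 22. From 26 to 27 Mb, which is outside the window, there were 51.

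**Figure D2:**
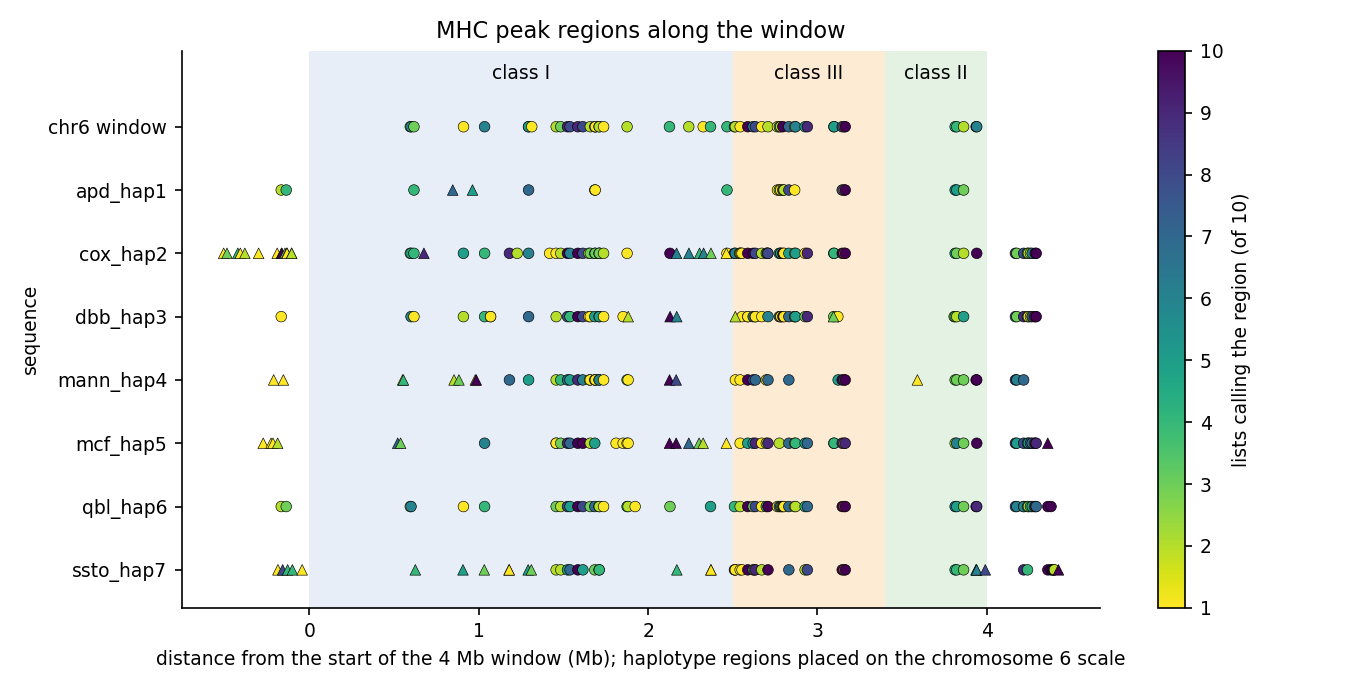
Each of the 452 MHC regions by its distance from the start of the 4 Mb window (horizontal axis, Mb) on each of the 8 sequences, colored by the number of lists that call it, with class I, III and II shaded. Circles are regions on chromosome 6 or inside a run of matched regions, and triangles are haplotype regions outside such runs. Regions crowd in the later class I part and in class III, and the stretch across the boundary of class III and class II is nearly empty on all 8 sequences.

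Taken 1 sequence at a time, MHC peaks were low and narrow compared with the rest of the genome. The summit pileup is the number of overlapping fragments or reads at the top of a peak, recovered from the deposited fold and p-value. Its median lay between 12 and 16 across the 10 libraries in the chromosome 6 window, between 12 and 16 on the haplotype sequences, and between 24 and 31 on chromosomes 1 to 22 and X. Copies of a locus on different sequences may share reads. Summed over the called copies of a locus, grouped as described below, the median pileup was 23.5 to 38.5 across the libraries. The part of such sharing in the lower pileup of single copies was not tested. Median widths were 289 to 424 bp in the window, 358 to 453.5 bp on the haplotype sequences and 487 to 609 bp elsewhere. A deposited −log10 q of at least 10 was reached by 0 to 29.8% of the peaks in the window and 11.0 to 41.8% on the haplotype sequences, against 49.6 to 57.3% elsewhere. The median deposited fold differed less, at 4.56 to 5.55 in the window, 4.68 to 6.26 on the haplotype sequences and 5.48 to 6.28 elsewhere. At 37.5 to 69.2% of the summits in the window and 40.4 to 67.9% on the haplotype sequences, the local background equalled the lowest, genome-wide background of that library, against 2.65 to 6.65% elsewhere. On each of the 8 sequences the median pileup over all lists was between 13 and 15, so the sequences differed in the number of their peaks more than in their height.

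Copies of a locus were found by the spacing of regions. On each haplotype sequence, runs of at least 3 regions with a common offset to regions of chromosome 6, or of already placed sequences, within 200 bp were chained. Of the 398 haplotype regions, 325 lay inside such runs and 73 outside them. A chromosome 6 region lay within 200 bp of the placed position for 246 of the 398 (61.8%, exact 95% interval 56.8 to 66.6%). The share was 18 of 22 on apd, 47 of 62 on qbl, 38 of 60 on dbb, 36 of 59 on mcf, 29 of 49 on mann, 31 of 56 on ssto and 47 of 90 on cox. The sequence with the most regions therefore had the lowest share with a counterpart, 52.2%, and the one with the fewest the highest, 81.8%. The runs held 20 of 22 regions on apd and 62 of 62 on qbl, but 68 of 90 on cox and 36 of 56 on ssto. Positions outside the runs were extrapolated from the nearest run, and the part of this in the shares was not tested.

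Grouping placed regions that overlap left 152 loci. Of these, 75 were found on 1 sequence only and 40 on 5 or more. Inside the window there were 108 loci, of which 54 were called on chromosome 6 and 54 on haplotype sequences only. Of the latter, 42 were on 1 haplotype sequence and 12 on 2 or more. A further 44 loci lay beyond the window, and 16 of them coincided with a region that chromosome 6 itself has just outside it. Only 3 loci were found on chromosome 6 and on no haplotype sequence. Among the 75 loci on 1 sequence, 24 were on cox, 18 on ssto, 11 on mann, 9 on mcf, 6 on dbb, 3 on chromosome 6, and 2 each on apd and qbl. As 53 of the 75 lay outside the matched runs, some may be copies that could not be placed.

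The share of loci called in all 10 lists did not follow the number of sequences step by step. It was 5 of 75 for loci on 1 sequence, 2 of 10 on 2, 3 of 13 on 3, 4 of 14 on 4, 1 of 11 on 5, 3 of 12 on 6, 9 of 12 on 7 and 1 of 5 on 8. The median over loci of the highest copy's pileup was 11 for loci on 1 sequence, between 13 and 16 on 2 to 6 sequences, 20.25 on 7 and 15.5 on 8. The loci on 7 sequences thus stood apart from those on 6 and on 8 by both measures, in groups of 12 and 5 loci. A locus with more copies has more chances to be called. Counting loci in place of regions, 28 of 152 (18.4%) were called in all 10 lists, 9 of 66 in the class I part, 9 of 34 in class III, 2 of 8 in class II, 7 of 16 after the window and 1 of 28 before it.

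At the 40 loci on 5 or more sequences no sequence carried the highest summit in most cases. Where at least 2 copies were called in a library, apd had the highest summit in 32.8% of its cases, ties included, cox in 30.8%, mcf in 27.7%, dbb in 25.2%, mann in 23.1%, qbl in 22.2%, ssto in 18.1% and chromosome 6 in 17.1%. A copy was called in 47.8% of the libraries on chromosome 6 and in 50.3 to 54.5% on the haplotype sequences. The median pileup of the called copies was 13.5 on chromosome 6, 15 on cox and 14 on each of the other 6. Cases share their locus and library and are not independent.

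**Figure D3:**
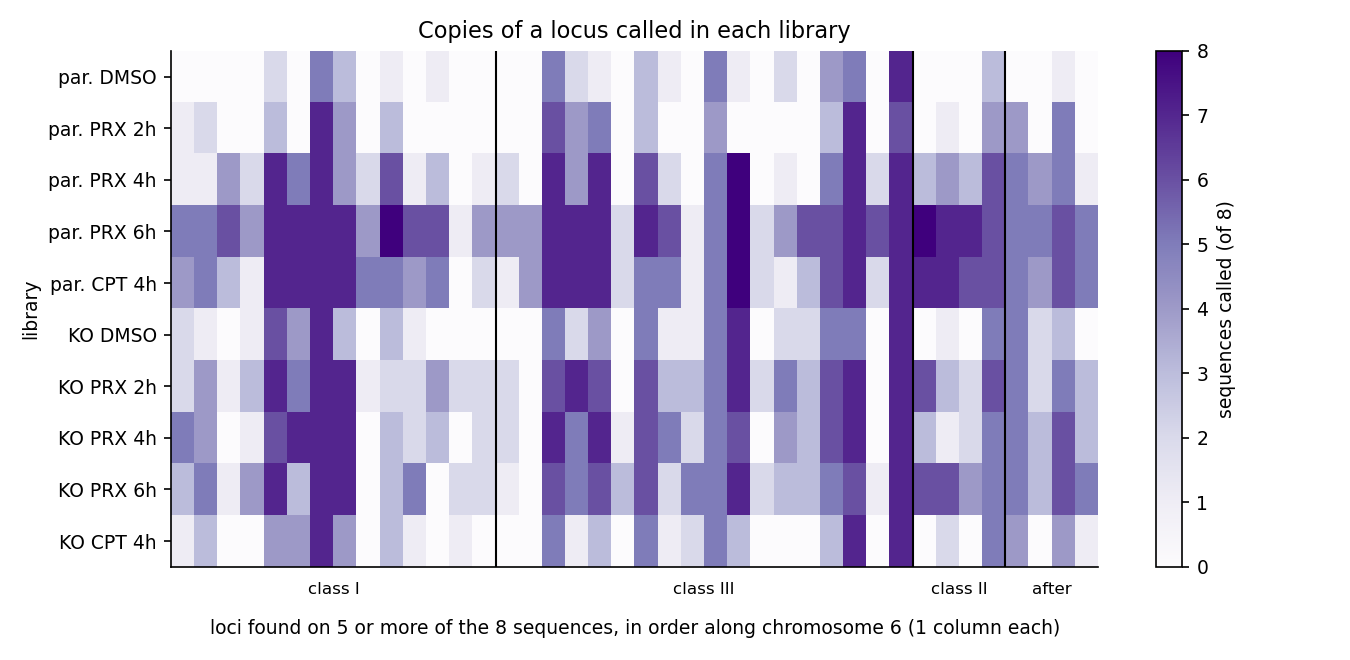
Number of sequences (color, 0 to 8) on which each of the 40 loci found on 5 or more sequences was called (columns, in order along chromosome 6, with their part named below) in each library (rows). The parental 6 h prexasertib row is dark for most loci and calls all 40, the parental DMSO row calls 18 of them, and the column for the locus at chr6:32163259-32163857 is dark in all 10 rows.

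Single loci show how copies varied. The locus at chr6:32163259-32163857 in class III lies at the edge of the long empty stretch and was called on 7 sequences, all except dbb. Its summed pileup was 77 with DMSO, 73, 104 and 161 over the prexasertib times and 151 on camptothecin in parental cells. In knockout cells it was 98, 150, 140, 140 and 91 in the same order. The median pileup of its copies ranged only from 14.5 on ssto to 19 on mcf, so no sequence was far above the others.

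Another class III locus nearby, on the class I side, was different. Its copy on cox, at chr6_cox_hap2:3615868-3617075, had a summit pileup of 22 with DMSO, 24, 30 and 63 after prexasertib and 60 after camptothecin in parental cells. In knockout cells the values were 35, 65, 53, 52 and 32. The median over libraries was 43.5 on cox, against 12.5 to 18 on the other 6 sequences that carry it. At the class III locus of chr6:31587825-31588828 the highest copy was on mann, with a median pileup of 31.5 against 15 to 20 on the other 6, and its peaks on mann were 904 to 1143 bp wide. On chromosome 6 that locus had the highest median fold, 6.46, of the 4 regions of the window called in all 10 lists. Its pileup there was 14 with DMSO, 18, 20, 30 and 19 in the treated parental libraries, and 19, 27, 21, 23 and 15 in the knockout libraries. At chr6:31619931-31620710, also class III, the cox copy had a median pileup of 24.5 and the other 6 copies 12 to 15.

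The class II part was represented by few loci, 2 of which were called in all 10 lists. At chr6:32936216-32936715 the pileup on chromosome 6 was 16 with DMSO, 19, 22 and 45 over the prexasertib times and 37 on camptothecin in parental cells, and 21, 42, 38, 30 and 21 in knockout cells. It was the highest summit of the window in every library except knockout DMSO, where chr6:31794794-31795799 in class III reached 22, and the peak was 269 to 462 bp wide. A short way further on, the locus of chr6:32939428-32940283 had the highest summed pileup of all MHC loci in the median library, 142, from 6 sequences. It was 57, 82, 139, 186 and 185 in the parental libraries and 110, 162, 145, 147 and 86 in the knockout libraries. Both loci were lowest in the parental DMSO library and highest in the parental 6 h library.

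No chromosome 6 region of the class I part was called in all 10 lists. The class I locus with the highest median summed pileup, chr6:30584921-30585784, was called on chromosome 6 in 9 lists, and on cox, dbb, mcf, qbl and ssto in all 10. The summed pileup over its 7 sequences was 65, 94, 107, 182 and 163 in the parental and 110, 163, 157, 145 and 95 in the knockout libraries. The median pileup of its copies lay between 16.5 and 20. The knockout library thus had the higher summed pileup with DMSO and the parental library the higher one at 6 h and after camptothecin, which also held at the class III loci of chr6:31587825-31588828 and chr6:32163259-32163857.

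Several strong regions were found on 1 haplotype sequence only. Among regions called in at least 8 lists, the highest median fold, 11.4, was that of chr6_mann_hap4:1333230-1333859, which lay outside the matched runs and was placed in class I. Its pileup was 17, 16, 28, 42 and 43 in the parental libraries and 22, 34, 44, 45 and 24 in the knockout libraries. The region at chr6_ssto_hap7:1511393-1511992, also placed in class I, had pileups of 11, 11, 20, 50 and 34 in the parental and 16, 33, 31, 26 and 28 in the knockout libraries. The region with the highest summit of the set was chr6_ssto_hap7:4865896-4866725, placed after the window, where ssto was the only haplotype sequence called and chromosome 6 has a region of its own outside the window. Its pileup was 33 with DMSO and 58, 58, 69 and 56 in the treated parental libraries, and 43, 52, 50, 62 and 42 in the knockout libraries. At all 3 regions the lowest value was in a parental library, with DMSO or after 2 h.

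The number of MHC regions called in parental cells was 80 with DMSO, 106, 206 and 359 over the prexasertib times and 310 on camptothecin. In knockout cells it was 143 with DMSO, 244, 232 and 255 on prexasertib and 130 on camptothecin. Gained regions were those called with the drug and not with DMSO in the same line, and lost regions the reverse. All treatments of a line share its DMSO library, so their counts are not independent. In parental cells 46 of the 126 regions called in either list were gained after 2 h (36.5%) and 20 lost (15.9%), beside a background on chromosomes 1 to 22 and X of 13.9% gained and 15.3% lost. After 4 h, 132 of 212 were gained (62.3%) and 6 lost (2.83%), beside 20.2% and 10.7%. After 6 h, 279 of 359 were gained (77.7%) and 0 lost, beside 35.3% and 5.88%. After camptothecin, 232 of 312 were gained (74.4%) and 2 lost (0.641%), beside 31.1% and 5.95%. The share of MHC regions gained was above the background in all 4 parental comparisons, and the share lost was below it in the last 3. Here and in the comparisons below, the background was not matched for pileup. Its median pileup was 24 to 31 across the libraries, against 12 to 16 in the MHC. The part of this in the shares was not tested.

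In knockout cells prexasertib added regions at a similar number at each time. After 2 h, 118 of 261 regions were gained (45.2%) and 17 lost (6.51%), beside 22.2% and 7.31%. After 4 h, 108 of 251 were gained (43.0%) and 19 lost (7.57%), beside 16.4% and 11.3%. After 6 h, 127 of 270 were gained (47.0%) and 15 lost (5.56%), beside 20.8% and 8.91%. Camptothecin went the other way, with 35 of 178 gained (19.7%) and 48 lost (27.0%), beside 11% and 17.1%. Counted as loci, so that copies count once, 11, 44, 81 and 75 were gained and 7, 1, 0 and 0 lost in the 4 parental comparisons, and 39, 36, 43 and 9 were gained and 3, 3, 2 and 12 lost in the 4 knockout comparisons. As a share of the loci called in either list, the gained loci were 23.9, 55.7, 69.8 and 68.2% in parental cells and 41.5, 39.6, 43.9 and 14.1% in knockout cells. These shares were below those over regions in all 8 comparisons and above the genome-wide background. On chromosome 6 beside the MHC, from 24 to 28 and 34 to 38 Mb, the share gained was 11.1, 16.7, 28.6 and 28.6% in parental cells and 18.0, 14.5, 17.1 and 9.03% in knockout cells, each below the genome-wide background.

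**Figure D4:**
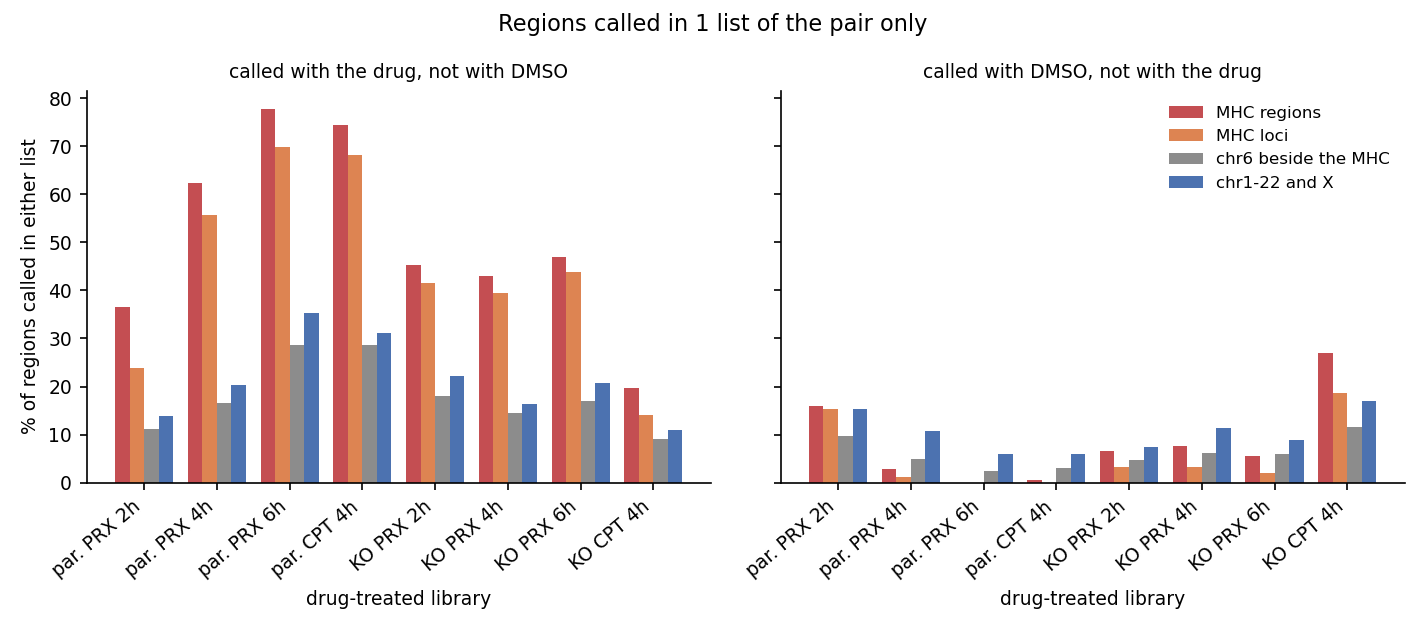
Percent of regions called in either list of a pair that were called only with the drug (left) or only with DMSO (right), for the 8 drug-treated libraries against the DMSO library of the same line. Red is MHC regions, orange MHC loci, gray chromosome 6 from 24 to 28 and 34 to 38 Mb, blue chromosomes 1 to 22 and X. The red and orange bars on the left exceed the blue bars in all 8 comparisons and reach 77.7% and 69.8% in the parental 6 h library.

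These counts move with list length, depth and the cutoff. The genome-wide background pileup, a measure of relative depth, was 1.63 in the parental DMSO library and 1.48, 1.33, 1.52 and 1.45 in the treated parental libraries, so no treated parental library was deeper by this measure. In knockout cells it was 1.59 with DMSO and 2.1, 1.85, 1.99 and 1.74 after treatment. With the same number of peaks taken from each list, the highest 15992 by q, 141 MHC regions were gained and 6 lost at 6 h in parental cells, and 101 and 20 after camptothecin. For the prexasertib times in knockout cells the numbers were 40 gained and 37 lost, then 57 and 23, then 39 and 29. The part of depth in these counts was not tested. With a −log10 q of at least 10, 138 regions were gained and 0 lost at 6 h in parental cells, and 32 were gained and 6 lost in knockout cells. At equal lengths and at this cutoff only MHC regions were counted. Without a genome-wide share beside them, these counts do not show whether the MHC differed from other regions.

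Regions called in both lists had a higher median fold than with DMSO in parental cells from 4 h on, while at 2 h the interval of the change included 0. The median log2 change of the deposited fold over shared MHC regions was 0.09 after 2 h (60 regions, 36 of them higher; interval over regions −0.02 to 0.24), 0.27 after 4 h (74; 0.10 to 0.34), 0.63 after 6 h (80; 0.52 to 0.68) and 0.39 after camptothecin (78; 0.29 to 0.55). Over chromosomes 1 to 22 and X it was 0.03, 0.22, 0.46 and 0.33. The fold rose by at least 1.5 times in 43 of 80 MHC regions at 6 h, beside 36.9% of the background, and in 26 of 78 after camptothecin, beside 21.8%. It rose so far in 5 of 60 after 2 h, beside 3.34%, and in 15 of 74 after 4 h, beside 13.2%. It fell so far in 1 region at 2 h, beside 2.63%, and in 0 in the other 3 comparisons, beside 0.927%, 0.869% and 0.628%.

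In knockout cells the median log2 fold change was 0.08, 0.15 and 0.08 over the prexasertib times and −0.07 on camptothecin, beside 0.02, 0.05, 0.04 and −0.07. The fold rose by at least 1.5 times in 11 of 126, 14 of 124 and 7 of 128 regions after prexasertib, beside 3.51%, 3.2% and 3.28%, and in 6 of 95 after camptothecin, beside 1.48%. It fell so far in 3, 1 and 5 regions after prexasertib, beside 1.82%, 2.02% and 2.19%, and in 8 after camptothecin, beside 4.72%.

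Widths moved the same way. The median log2 width change in parental cells was 0.23, 0.36, 0.67 and 0.61, beside 0.00, 0.09, 0.23 and 0.22 on chromosomes 1 to 22 and X. In knockout cells it was 0.21, 0.18, 0.17 and −0.04, beside 0.18, 0.09, 0.13 and −0.03. The interval of the camptothecin value, −0.21 to 0.04, included 0. On chromosome 6 beside the MHC the parental values were 0.09, 0.24, 0.41 and 0.44, each below the MHC value, and the knockout values 0.27, 0.19, 0.26 and 0.02, each above it. At 6 h, 73 of 80 shared MHC regions were wider than with DMSO in parental cells and 87 of 128 in knockout cells. On chromosomes 1 to 22 and X the share wider was 73.3% and 67.4%, and on chromosome 6 beside the MHC 85.3% and 74.8%. In parental cells the MHC share was above both. In knockout cells it was close to the genome-wide share and below that beside the MHC. In the parental DMSO list the median peak was 363 bp wide in the window and 358 bp on the haplotype sequences, against 514 bp elsewhere, and the part of this lower starting width in the change was not tested. In the 53 regions called in all 10 lists the width change was 0.66 at 6 h and 0.63 after camptothecin in parental cells. In knockout cells it was 0.12 (−0.04 to 0.29), 0.11 (−0.05 to 0.24) and 0.09 (−0.03 to 0.25) over the prexasertib times, so all 3 intervals included 0.

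Height was also taken as the summit pileup over the genome-wide background of the library. Its median log2 change was 0.27, 0.62, 1.08 and 0.95 in parental cells and 0.06, 0.18, 0.04 and −0.13 in knockout cells, beside 0.15, 0.59, 0.96 and 0.78, and 0.09, 0.07, 0.02 and −0.20. On chromosome 6 beside the MHC it was 0.26, 0.86, 1.26 and 1.09 in parental cells and 0.12, 0.18, 0.12 and −0.24 in knockout cells. At 4 h, at 6 h and on camptothecin in parental cells, the median height change was thus smaller in the MHC than beside it. The height intervals of the MHC and of the chromosome beside it overlapped in each of these comparisons. By the deposited fold the order was the reverse, at 0.27, 0.63 and 0.39 in the MHC against 0.20, 0.41 and 0.33 beside it. The fold intervals overlapped at 4 h and on camptothecin, but not at 6 h. The median width change was also larger in the MHC. Over the 25 recurrent regions named by rule, the median height was 9.18 times the background with DMSO, 11.5, 15.8 and 23 over the prexasertib times and 19.4 on camptothecin in parental cells. In knockout cells it was 11.9, 14.8, 13, 14.5 and 11.5. The parental DMSO library called 23 of the 25. The ranges overlapped between all libraries. Some of the 25 regions are copies of the same locus and some were placed after the window, so they are not independent.

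**Figure D5:**
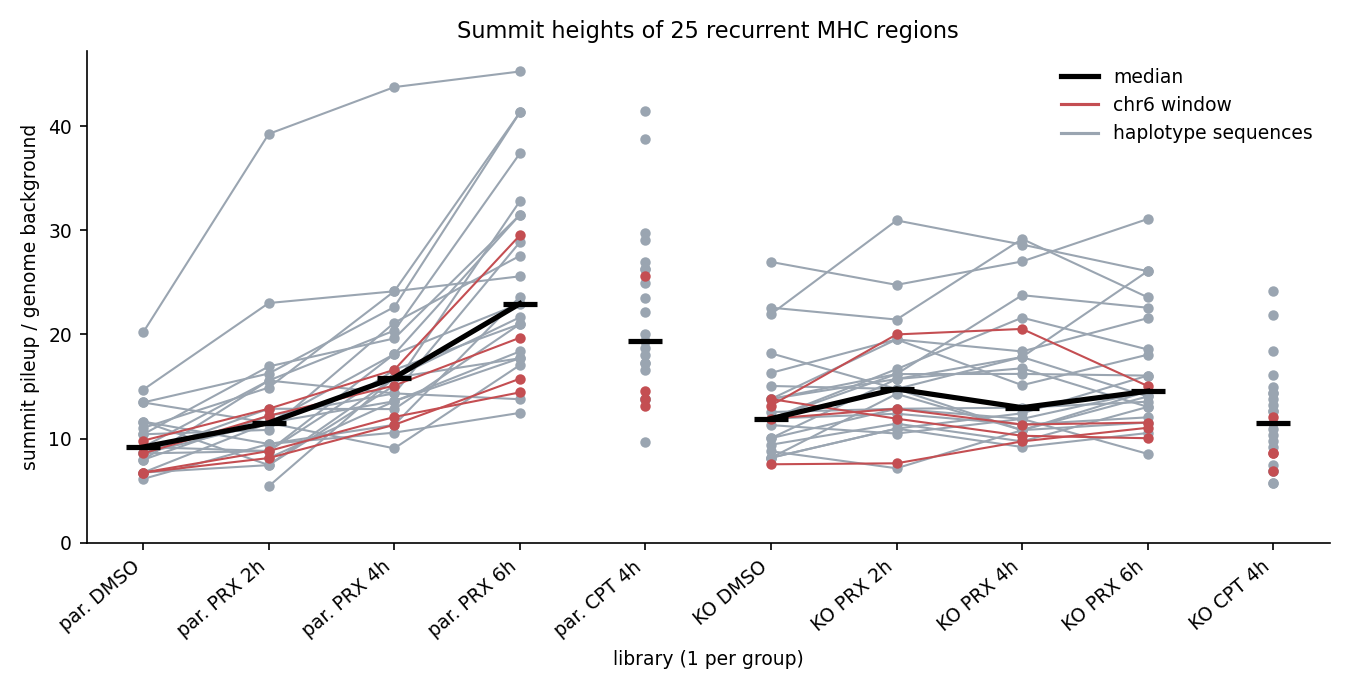
Summit pileup divided by the genome-wide background of the library (vertical axis, linear) for 25 recurrent MHC regions, 4 in the chromosome 6 window (red) and 21 on haplotype sequences (gray), in each of the 10 libraries. Some of the regions are copies of the same locus. Lines join the DMSO and prexasertib libraries of a line, camptothecin stands apart, and black bars are medians, which go from 9.18 to 23 over the prexasertib times in parental cells and lie between 11.5 and 14.8 in all 5 knockout libraries.

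Summed over the copies of a locus, height rose at 35 of 35 shared loci in the parental 6 h library, with a median log2 change of 1.59, and at 33 of 35 after camptothecin, with 1.46. In the knockout line it rose at 38 of 53 loci at 6 h, with a median of 0.26, and at 17 of 43 after camptothecin, with −0.13. The number of sequences called at these loci grew at 23 and fell at 0 of 35 at 6 h in parental cells, and grew at 25 and fell at 1 of 53 in knockout cells. A sum over called copies grows when further copies pass the cutoff, so it overstates the change of any 1 copy.

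Some regions were called in every treated parental library and not with DMSO. There were 36 of 452 (7.96%), beside 2.82% on chromosomes 1 to 22 and X, and in the knockout line 14 (3.1%), beside 1.84%. In parental cells 0 were called with DMSO and in no treated library, beside 1.7%, and in knockout cells 4 (0.885%), beside 2.51%. The strongest by q was chr6_mann_hap4:2975766-2976847 in class III, with pileups of 10, 12 and 31 over the prexasertib times and 21 on camptothecin. Its locus lies on 7 sequences, and the chromosome 6 copy, chr6:31632822-31633917, had 13, 13, 28 and 12 and no peak with DMSO. The cox copy of the locus was called with parental DMSO at a pileup of 12, so that the locus itself was called in all 10 lists. In knockout cells the chromosome 6 copy was called with DMSO at a pileup of 13, after prexasertib at 13, 15 and 14, and not after camptothecin. Another was chr6_cox_hap2:1693042-1694117 in class I, with 12, 18, 27 and 25 in the treated parental libraries, and with 18, 22, 22, 17 and 10 in all 5 knockout libraries. Not being called in the parental DMSO list, which has the fewest MHC peaks, does not show that a region was closed there.

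Between the lines, the direction depended on the condition. With DMSO, 9 of 152 MHC regions had a peak in the parental list alone (5.92%) and 72 in the knockout list alone (47.4%), beside 6.84% and 26.7% on chromosomes 1 to 22 and X. After 2 h of prexasertib the counts were 7 and 145 of 251 (2.79% and 57.8%), beside 3.5% and 37.3%. After 4 h they were 50 and 76 of 282 (17.7% and 27.0%), beside 7.78% and 23.4%, and this pair includes the library whose raw data are cut short. After 6 h they were 136 and 32 of 391 (34.8% and 8.18%), beside 16.9% and 17.3%. After camptothecin they were 190 and 10 of 320 (59.4% and 3.12%), beside 22.5% and 10.7%. The knockout list thus had the more MHC regions with DMSO and at 2 and 4 h. The parental list had the more at 6 h and after camptothecin.

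At equal list lengths the difference at 2 h was not kept, with 45 regions in the parental list alone and 39 in the knockout list alone, and at 4 h the order turned, with 67 and 42. The pair at 6 h gave 122 and 14, camptothecin 91 and 17, and DMSO 22 and 39. No genome-wide share was computed at equal list lengths. The median log2 ratio of the fold, parental over knockout, over MHC regions called in both was −0.19 with DMSO, then −0.14, 0.00 and 0.41 over the prexasertib times, and 0.26 on camptothecin, beside −0.14, −0.13, 0.03, 0.27 and 0.26. At 6 h the fold was higher in parental cells in 186 of 223 shared regions, beside 77.7% on chromosomes 1 to 22 and X. It was at least 1.5 times higher in 67 of them, beside 15.3%, and as much lower in 1, beside 1.59%. On camptothecin it was higher in 99 of 120, beside 79.1%. It was at least 1.5 times higher in 27, beside 15.5%, and as much lower in 2, beside 1.07%. In both pairs most shared regions outside the MHC thus also had the higher fold in parental cells. With DMSO the fold was at least 1.5 times higher in parental cells in 2 of 71 shared MHC regions, beside 1.24%, and lower in 10, beside 8.32%. The same counts at 2 h were 4 and 16 of 99, beside 1.05% and 8.85%, and at 4 h 5 and 14 of 156, beside 3.62% and 3.38%.

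Few regions were called throughout 1 line and never in the other. In all 5 parental lists and no knockout list there were 0 of 452 MHC regions, beside 0.00563% on chromosomes 1 to 22 and X. In all 5 knockout lists and no parental list there was 1 (0.221%), beside 0.361%, chr6_cox_hap2:3292295-3293154 in class III, with pileups of 12, 17, 17, 15 and 11. Its locus is on 5 sequences and was called in 7 lists. Other regions of the locus had a peak in parental cells, on qbl at a pileup of 11 after 6 h and on cox at 9 on camptothecin. The 59 regions called in all 5 parental lists (13.1%, beside 33.8%) were each called in at least 1 knockout list, and of the 87 called in all 5 knockout lists (19.2%, beside 42.2%) only this 1 was in no parental list.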

How the data were processed

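ATAC-seq libraries of CCRF-CEM cells, 1 per group in 10 groups, were analysed from 1 deposited narrowPeak list each. Per the submitters' processing notes, the build was hg19, and the named tools are MACS2 2.1.2, BWA 0.7.17, Picard 2.9.2, SAMtools 1.8, Trimmomatic 0.39 and Trim Galore 0.6.2. Their parameters, duplicate and multi-mapping handling and transposase shift are not given in the sources used here, and they decide how reads are shared among near-identical haplotype sequences. The deposited columns used were each peak's start and end, its fold enrichment (a ratio), its score, its summit −log10 p-value and its −log10 q-value, the smallest of which was 2.00. The authors' peak lists have no header, so these columns were read by the narrowPeak layout.

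Lines with the same start and end were counted as 1 peak, and peaks that overlapped by at least 1 bp as 1 region, with the widest peak and the highest fold of a list standing for it. Whole summit pileups were solved from fold and p-value, matching within 0.001 for 99.5% to 99.7% of the summits of a list. No read counts were used. The lowest background so recovered was taken as the genome-wide background of a library. Haplotype regions were placed on chromosome 6 by chaining shared offsets (tolerance 200 bp, at least 3 matched pairs, 3 rounds). Coordinates are 1-based. Intervals of shares are exact (Clopper-Pearson) and those of medians are from order statistics, both at 95% confidence and over regions only. The steps were tested on simulated data. Of 19678 simulated summits 100% were recovered. Of 1664 simulated haplotype regions 1564 were placed rightly, 8 wrongly and 92 fell outside runs. For gained, lost and widened regions, 200 of 200 were found each. These changes were written into a copy of the knockout DMSO list, so this checks the counting step alone. All simulated haplotype regions came from loci common to the sequences, so loci particular to 1 haplotype were not covered. Python 3.11.15, numpy 2.4.6, pandas 2.3.3, scipy 1.17.1 and matplotlib 3.10.9 were used.

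Named regions were those of the window called in all 10 lists (up to 4 per part by median fold and 2 by width), the 20 haplotype regions with the highest median fold among the 94 called in at least 8 lists and at least 1 per sequence, those called throughout 1 line only, and the strongest called in all treated lists or with DMSO only. The members and rules were chosen with earlier results of these data known. Loci, copies and the stretches beside the MHC were added after the data were seen, and single loci were chosen after their values were seen. Alternatives were a −log10 q of at least 10, a reciprocal overlap of 50%, equal list lengths, other width and height measures, other tolerances and boundaries, and lists left out. Rules that needed an hg19 annotation were not used here.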

Additional observations from a re-analysis of the deposited data

Results flagged for a closer look

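The changes after camptothecin had opposite signs in the 2 lines, each with 1 library against its own DMSO library, and this difference was not tested. MHC regions gained minus lost came to 230 in parental cells and -13 in knockout cells. The median log2 change of the deposited fold over shared MHC regions was 0.394 and -0.0749, and that of the width 0.613 and -0.0416. Over chromosomes 1 to 22 and X the fold changes were 0.33 and −0.07, so the same opposition of signs was seen outside the MHC.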

How the results depend on the processing

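No paired analysis was possible because each group has 1 library and the groups share fewer than 2 replicate numbers. Counts of gained and lost regions are given in the order parental 2, 4 and 6 h of prexasertib and camptothecin, then the same for the knockout. Under these alternatives only MHC regions were counted, so no genome-wide share stands beside the counts. With a −log10 q of at least 10, gained regions numbered 9, 24, 138, 70, 50, 43, 32 and 11, and lost regions 4, 2, 0, 1, 6, 5, 6 and 11. With equal list lengths, gained regions numbered 46, 93, 141, 101, 40, 57, 39 and 32, and lost regions 20, 17, 6, 20, 37, 23, 29 and 42. With a reciprocal overlap of 50%, gained peaks numbered 57, 153, 311, 262, 150, 129, 147 and 54, and lost peaks 30, 23, 28, 27, 49, 39, 35 and 65. Gains exceeded losses under all 3 alternatives in the 7 comparisons other than knockout camptothecin, where gains equalled losses at the q cutoff and stayed below them under the other 2. Between lines, in the order DMSO, 2, 4 and 6 h and camptothecin, parental-only regions at the q cutoff numbered 2, 3, 8, 100 and 62 and knockout-only regions 16, 56, 38, 2 and 7. Equal lengths gave 22, 45, 67, 122 and 91 against 39, 39, 42, 14 and 17, so the order turned at 2 and 4 h. Reciprocal overlap gave 25, 30, 87, 182 and 225 against 88, 167, 110, 74 and 42.

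The fold change as height over the genome-wide background was 0.27, 0.62, 1.08 and 0.95 in parental cells and −0.13 in knockout cells after camptothecin. As the pileup before division, an alternative chosen after seeing the data, it was 0.98 and 0.77 after 6 h and camptothecin in parental cells and 0.46, 0.39 and 0.36 after prexasertib in knockout cells. At the q cutoff 151 regions remained on the haplotype sequences and 20 in the window. Chromosome 6 counterparts numbered 181 at a tolerance of 100 bp and 288 at 400 bp, and the class III share lay between 33.3% and 42.6% with either boundary moved by 0.1 Mb. The number of loci called in every list was 34 without the parental DMSO list and 28 without the parental 4 h list. Width changes, and changes over regions called in all 10 lists, stayed within the interval of the value reported. Over the latter, the 3 width changes on prexasertib in knockout cells went from 0.21, 0.18 and 0.17 to 0.12, 0.11 and 0.09, with intervals that include 0. Most MHC summits had pileups near the lowest that the lists hold, so absence of a region from a list does not show that it was closed. The part of depth in such absences was not tested.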
